A study of Mus musculus with 18 samples.

Results

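Cytosolic ribosomal protein genes were followed during induced erythroid differentiation of a mouse leukemia line. Probes were taken by gene symbol alone: a single platform symbol beginning with Rpl or Rps and a digit, or Rplp0, Rplp1 or Rplp2, without Rps6k kinases and without pseudogene symbols. The symbols matched 24 of 6868 probes. Of these, 22 had a value on at least 5 of 18 arrays and form the set described here, out of 4658 probes that met the same minimum. They were 13 large subunit proteins, 2 proteins of the large subunit stalk and 7 small subunit proteins, each represented by 1 probe. The matches outside the minimum were Rpl3, measured on 2 arrays (-1.17 and 1.41 log2), and Rpl30, measured on 1 array (0.47). The members nearest to the minimum were Rps28 with 9 arrays and Rpl10a with 11.

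The cells were murine erythroleukemia (MEL) cells, an established line of transformed red cell precursors that resumes maturation and makes hemoglobin when given hexamethylene bisacetamide (HMBA). Every sample was total RNA of this line, either uninduced or taken 1, 2, 3, 4, 5 or 6 days after HMBA, and each two-colour array paired such a sample with uninduced control RNA. Series A had 1 array for each of days 0 to 6. Series B had 1 array for days 0, 2, 3, 4, 5 and 6, and a further 5 arrays with SD in their title, for days 0, 2, 3, 5 and 6. On day 0 both channels held uninduced RNA, so these arrays compared control cells with control cells. The subclone and the dose of HMBA are not given in the sources used here, and a leukemic line is a limited model of normal erythroblasts.

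Ribosomal proteins coat and stabilise the ribosomal RNA of the large and the small subunit, and nearly all are needed in equal numbers for each ribosome. Their mRNAs are among the most abundant of a growing cell, and most begin with a run of pyrimidines, the 5' terminal oligopyrimidine (TOP) motif, through which growth signals control their translation together. Erythroid precursors are known to depend on them: inherited loss of a copy of any of several of these genes causes Diamond-Blackfan anemia, a failure of red cell production. Terminal red cell maturation ends with the loss of ribosomes.

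The start site regions of 4 members are shown because they illustrate the feature that most of these genes share by sequence and that the choice by symbol did not use. Each runs 5' to 3' on the gene's own strand, from 40 bases before to 20 bases after a RefSeq start site (GRCm38.p6), and capitals mark every run of at least 7 bases that are C or T. Rps18 (chr17:33955646-33955705, minus strand) and Rpl28 (chr7:4792925-4792984, plus strand) carry the longest run of the 4, with 11 bases. Rpl12 (chr2:32961672-32961731, plus strand) carries runs of 7 bases, and Rpl23 (chr11:97782420-97782479, minus strand) has none in this window.
Rps18: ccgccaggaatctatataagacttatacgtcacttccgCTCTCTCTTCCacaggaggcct
Rpl28: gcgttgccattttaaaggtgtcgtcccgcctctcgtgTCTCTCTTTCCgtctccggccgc
Rpl12: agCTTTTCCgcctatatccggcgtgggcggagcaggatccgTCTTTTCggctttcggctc
Rpl23: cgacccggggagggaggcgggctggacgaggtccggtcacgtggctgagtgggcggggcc

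Of the 17 member genes matched in the RefSeq promoter table, 12 (70.6 percent) held such a run on the sense strand in this 60-base window. The same search found one for 10532 of 27025 genes of the table (39 percent). The 12 were Rpl7a, Rpl10a, Rpl12, Rpl19, Rpl27, Rpl28, Rplp0, Rps7, Rps12, Rps18, Rps19 and Rps24, and the 5 without a run were Rpl9, Rpl10, Rpl23, Rps16 and Rps28. Rpl8, Rpl21, Rpl29, Rpl32 and Rplp1 were not matched. A match describes these letters and is not evidence of a working TOP motif.

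Values are deposited log2 ratios from which the array's own median was subtracted, so that 0 is the middle probe of an array. The deposited medians lay between -0.15 and 0.70 over the 18 arrays. Between 2008 and 4945 probes had a value on an array, and between 15 and 22 of the 22 members. The likely direction is induced over control, since the labels put induced RNA in channel 1 of the arrays without SD and the globin probes Hba-ps3 and Hbb-b2 were 4.43 and 2.34 log2 above day 0 late in the course. The numerator of the ratio, the dyes and any earlier normalization are not given in the sources used here. Tests used the 13 arrays without SD. No label states whether arrays represent separate cultures, so the spread between them, on which every p-value rests, may be technical. The small number of arrays limits the precision. Fewer cells of a kind and less RNA per cell cannot be told apart in such bulk RNA. Ribosomal protein genes have many near-identical processed copies in the mouse genome, whose transcripts a probe could also bind.

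Ribosomal protein ratios were low on most arrays, including those of uninduced cells. Over the 13 arrays 213 of 249 member values were below the array median. Over all 18 arrays 304 of 353 were, with the SD arrays in the sign as deposited, and 226 of 353 with the SD arrays turned. Among the 13 arrays, Rpl7a and Rpl8 were below the median on every one that measured them. The day 0 array of series A had a member median of -1.60, with 19 of 20 members below 0, and that of series B had a median of -3.26, with 18 of 18 below 0. Of the 18 members measured on both, 16 were at least 1 log2 below the median on both, against 9.56 percent of all 1935 probes measured there. With the SD array of day 0 included in its deposited sign, 15 of 18 members did so on all 3 arrays, against 8.01 percent of 1536 probes. With its sign turned, 0 of 18 members and 0 of 1536 probes (0 percent) did. These low values therefore arose where both labelled channels held RNA of uninduced cells, and their cause was not tested.

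In series A the members stood near the array median on days 1 to 3 and low before and after. The member medians were -0.02 on day 1, 0.50 on day 2 and -0.24 on day 3, then -1.81, -1.87 and -1.63 on days 4, 5 and 6. On day 2 only 4 of 16 members were below 0, and the member median stood at percentile 67.3 of all probes on that array, whereas on day 0 it stood at percentile 3.3. In series B the 5 arrays of days 2, 3, 4, 5 and 6 had member medians of -1.78, -3.39, -4.31, -2.80 and -2.29. On each of these 5 arrays at least 15 members were below 0, and the day 2 array of this series was the least low. The mean of the array medians was -2.43 ± 1.17 on day 0 (SD, n = 2). For days 2, 3, 4, 5 and 6 it was -0.64 ± 1.62, -1.82 ± 2.22, -3.06 ± 1.77, -2.33 ± 0.66 and -1.96 ± 0.46 in that order (SD, n = 2 each). The spread between the series was thus as large as most differences between days.

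**Figure D1:**
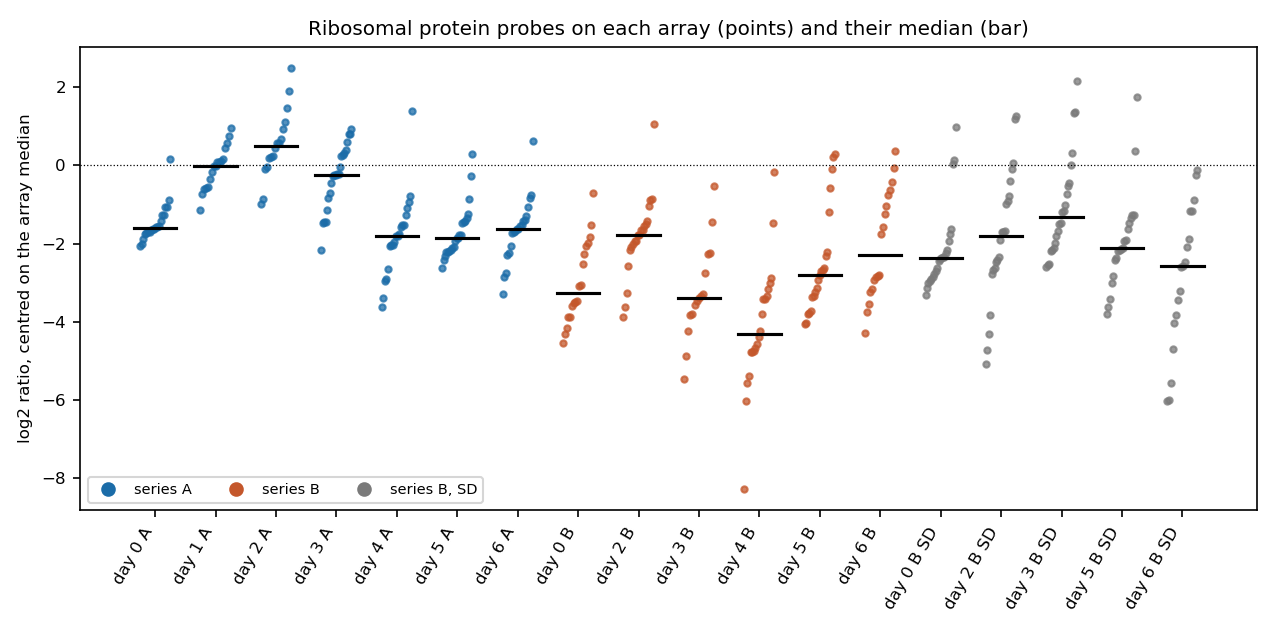
Centred log2 ratio (vertical axis) of every ribosomal protein probe on each of the 18 arrays (horizontal axis, day and series). Each point is 1 probe and each bar the median of an array. SD arrays have the sign as deposited. The bars lie below 0 on 17 arrays and above it, at 0.50, on day 2 of series A.

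**Figure D2:**
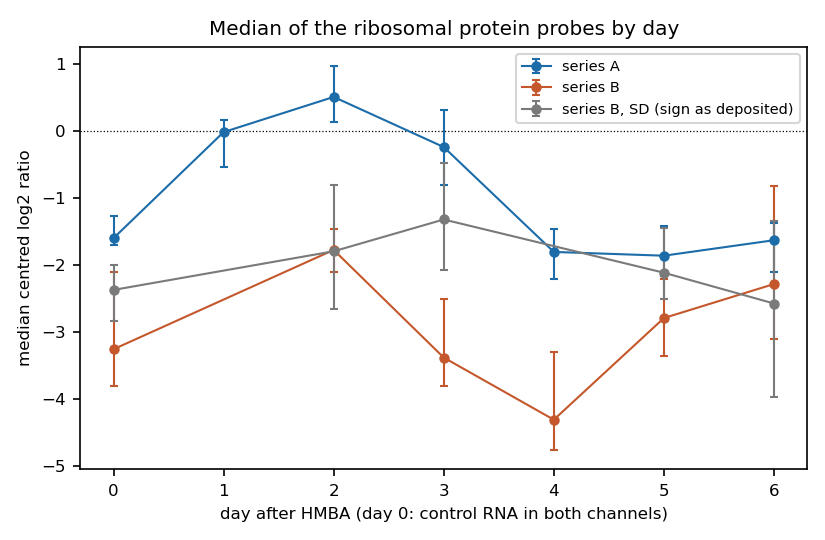
Median centred log2 ratio of the ribosomal protein probes (vertical axis) by day after HMBA (horizontal axis) for series A, series B and the SD arrays of series B with the sign as deposited. Bars span the interquartile range of the probes. Series A runs from -1.60 on day 0 to 0.50 on day 2 and back to -1.63 on day 6.

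The early comparison asked how the members stood on days 1 and 2 of HMBA relative to uninduced cells. It set the average of the day 1 and day 2 means against the mean of day 0. Day 1 was measured in series A alone, so series A weighs more in the early mean than in that of day 0. The member median was higher in series A than in series B on each shared day. All 17 members that could be fitted were higher early, with a median difference of 2.03 log2. Among all 2966 probes fitted, 53.6 percent were higher and 46.4 percent lower, and the median was 0.08. limma called 0 of 1060 probes at a Benjamini-Hochberg adjusted p of 0.05 (0 percent), and the adjusted p was 0.999 for each member. At an unadjusted p under 0.05, 4 of the 15 members tested were higher (Rps18, Rpl8, Rpl19 and Rpl21), against 29 of the 1060 probes (2.74 percent), and 0 members were lower, against 8 probes (0.755 percent). Of the 13 members with all early and day 0 values, 4 did not overlap between the groups and were higher early (Rpl8, Rpl19, Rps18 and Rplp1), against 11.8 percent of 1012 probes, and 0 were lower throughout, against 7.21 percent.

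The early difference rested on few arrays. Without the day 0 array of series B the member median was 1.07, with 0 of 15 members and 0 of 1046 probes at an unadjusted p under 0.05 in limma. It was also 1.07 without the day 2 array of series A. With the day 0 SD array added as deposited it was 1.87, with 17 of 17 members higher. With that array in turned sign it was 0.63, with 12 higher and 5 lower. With the mean day 0 profile, scaled to each array by regression across probes, removed it was 0.56, with 14 higher and 3 lower. With the series letter in the model it was 1.47. Within series A the median was 1.89 with 19 of 19 members higher, where the median of all probes was -0.01. Within series B, where day 2 is the early day, it was 1.08 with 15 of 18 higher, and the median of all probes was 0.51.

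Among large subunit proteins, Rpl19, which takes part in a bridge between the subunits, had the largest early difference of the members tested. Its probe (M004547_01) read -1.59 and -3.89 on the day 0 arrays of series A and B, -0.02 on day 1 of series A, and 1.91 and -1.56 on day 2 of series A and B. All 3 early values were above both day 0 values, though the early value of series B was only just above the day 0 value of series A. The difference was 2.81 log2 (SE 1.24, 7.03-fold; limma unadjusted p = 0.0372, adjusted p = 0.999). It was 1.66 without day 0 of series B.

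Rpl21 (M004423_01), another large subunit protein, read -1.62 and -3.51 on day 0, 0.58 on day 1, and 0.58 and -1.64 on day 2. The day 2 value of series B lay just under the day 0 value of series A, so the groups overlapped. The early difference was 2.59 log2 (SE 1.18; limma adjusted p = 0.999). Rpl8 (M004453_01), which lies close to the peptidyl transferase centre, read -1.66 and -4.15 on day 0, -0.57 on day 1, and -0.05 and -0.86 on day 2. Its 3 early arrays were all above both day 0 arrays, and the difference was 2.40 log2 (SE 1.05; limma adjusted p = 0.999).

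Rpl23 (M005909_01), a large subunit protein that can also bind the p53 regulator Mdm2, read -1.75 and -4.53 on day 0, 0.12 on day 1, and -0.86 and -2.09 on day 2. The early difference was 2.46 log2 (SE 1.24) and the groups overlapped. Rpl27 (M004278_01), a gene mutated in Diamond-Blackfan anemia, read -1.43 and -3.59 on day 0, 0.44 on day 1, and 1.10 and -2.57 on day 2. Its early values in series A were above 0 and its series B value was not. Rpl10 (M005128_01), which joins the large subunit late in its assembly, read -1.69 and -1.99 on day 0, -0.34 on day 1, and 0.21 and -2.15 on day 2, a difference of 1.18 log2 (SE 1.37).

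The lowest early differences of the members tested were those of Rpl32, Rpl12 and Rplp1. Rpl12 (M005587_01), which sits at the base of the stalk, read -1.07 and -0.71 on day 0, 0.95 on day 1, and -0.997 and -1.05 on day 2. It stood apart only on day 1, and its difference was 0.85 log2 (SE 0.82). Rpl32 (M006004_01) was not measured on day 0 of series B. It read 0.15 on day 0 of series A, -0.02 on day 1, and 1.47 and 1.06 on day 2, a difference of 0.47 log2 (SE 1.09).

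Among small subunit proteins, Rps18 (M005117_01), which lies in the head of the subunit where it faces the large subunit, had the smallest unadjusted p of the members. It read -1.89 and -3.49 on day 0, 0.09 on day 1, and 0.19 and -0.89 on day 2, so that no early array fell to a day 0 value. The difference was 2.56 log2 (SE 1.00, 5.89-fold; limma unadjusted p = 0.0211, adjusted p = 0.999). Without day 0 of series B it was 1.76. Rps12 (M006782_01) read -1.73 and -4.31 on day 0, -0.61 on day 1, and 0.92 and -1.93 on day 2, a difference of 2.46 log2 (SE 1.20). Its day 2 value in series B was below its day 0 value in series A. Rps16 (M000213_01), whose tail reaches towards the bound tRNA, read -1.27 and -2.06 on day 0, -0.54 on day 1, and 0.24 and -1.65 on day 2, a difference of 1.04 log2 (SE 0.88).

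The stalk proteins, which draw elongation factors to the ribosome, gave a small and a middling early difference. Rplp1 (M003040_01) read -1.58 and -1.83 on day 0, -0.74 on day 1, and -0.09 and -1.49 on day 2. The groups did not overlap, yet the difference was 0.94 log2 (SE 1.26), and 0.59 without day 2 of series A. Rplp0 (M002101_01), the scaffold that anchors the stalk, read -2.02 and -3.89 on day 0, 0.16 on day 1 and -2.0045 on day 2 of series B, with no value on day 2 of series A. Its difference was 2.03 log2 (SE 1.17). The median early difference was 1.77 over 12 fitted large subunit probes, stalk included, and 2.05 over 5 small subunit probes.

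The late comparison asked where the members stood once cells had matured for several days, and subtracted the mean of day 0 from the average of the day 4, day 5 and day 6 means. The members lay on both sides of their day 0 values: 8 of 19 fitted were higher and 11 lower, and their median was -0.13. Of all 2613 probes fitted, 59.4 percent were higher and 40.6 percent lower, and their median was 0.16. limma called 0 of 1211 probes at an adjusted p of 0.05 (0 percent). At an unadjusted p under 0.05 there were 0 of 15 members in either direction, against 21 probes higher (1.73 percent) and 7 lower (0.578 percent). Of the 13 fully measured members 0 were free of overlap in either direction, against 3.79 percent of 633 probes higher and 2.21 percent lower. The small median had no firm sign. With the day 0 SD array added as deposited it was -0.06, with 10 of 21 members higher. With that array in turned sign it was -1.76, with 1 of 21 higher. With the scaled day 0 profile removed it was -0.80, with 6 of 19 higher. It was 0.10 without centring, where the median of all probes shifted from 0.16 to 0.48, 0.14 with quantile normalization and 0.33 with the arrays set to equal spread. Leaving out the day 0 array of series A gave 0.99, and leaving out that of series B gave -0.67. Without the 2 day 4 arrays, an alternative chosen after the data were seen, it was 0.08 with 12 of 19 members higher.

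The highest late differences were those of Rpl8, Rplp0 and Rpl23. Rpl8 read -1.77, -1.41 and -1.63 on days 4, 5 and 6 of series A and -3.01, -3.14 and -0.44 in series B, against -1.66 and -4.15 on day 0. The series A values lay on both sides of their own day 0 array, whereas all 3 values of series B were above theirs. The difference of 1.01 log2 (SE 0.92; limma adjusted p = 1.00) was -0.24 without day 0 of series B. Rplp0 read -1.95, -1.47 and -1.55 in series A and -3.80, 0.22 and -3.24 in series B, where day 5 stood far above the other days. Its difference was 0.99 log2 (SE 0.96), and 0.06 without day 0 of series B. Rpl23 read -1.53, 0.28 and -1.68 in series A and -4.74, -2.93 and -2.81 in series B. It was high on day 5 of series A alone, and its difference was 0.91 log2 (SE 1.08), or -0.49 without day 0 of series B.

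The lowest late differences of the members tested were those of Rplp1, Rpl12 and Rpl10. Rplp1 read -2.03, -1.44 and -2.30 on days 4, 5 and 6 of series A and -4.24, -2.31 and -2.87 in series B. It was below the day 0 mean on 5 of 6 arrays, with a difference of -0.82 log2 (SE 1.10). Rpl12 read -1.81, -2.08 and -1.28 in series A and -1.48, -3.80 and 0.35 in series B. It too was below the day 0 mean on 5 of 6 arrays, the exception being day 6 of series B, and its difference was -0.79 log2 (SE 0.72). Rpl10 read -2.07, -1.87 and -1.74 in series A and -4.39, -3.34 and -0.76 in series B, a difference of -0.52 log2 (SE 1.20) that was 0.12 with quantile normalization and 0.05 with equal spread. Rpl9 and Rps19 had too few values for the test. Rpl9 was below its 1 day 0 value on 6 of 6 late arrays, at -1.76 log2 (SE 1.44), and Rps19 differed by -1.09 log2 (SE 0.87).

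Set against 0 instead of against day 0, the late ratios were past an adjusted p of 0.05 in limma for 14 of 15 members, and for 25.5 percent of the 1211 probes. Early, 0 of 15 members passed (0 percent of 1060 probes), and 69 probes had an unadjusted p under 0.05. The late members' median ratio was -2.23 over 21 fitted. Of 14 members measured on all 6 late arrays, 5 were at least 1 log2 below the median on all of them, against 2.1 percent of 810 probes. The day 0 arrays, with uninduced RNA in both channels, were just as low. The late ratios against 0 were therefore not read as a change with HMBA.

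The late minus early comparison, which uses no day 0 array, asked whether the members stood lower at the end of the course than on days 1 and 2. All 16 members fitted were lower late, with a median of -1.68 log2, while 50 percent of all 2261 probes were lower and 50 percent higher. limma called 0 of 1050 probes (0 percent), and the smallest adjusted p among the members was 0.730. At an unadjusted p under 0.05, 5 of 15 members were lower (Rps12, Rpl21, Rpl27, Rpl12 and Rps18), against 34 of all probes (3.24 percent), and 0 were higher, against 33 (3.14 percent). Of the 11 members with a value on every early and late array, 2 were lower without overlap (Rps12 and Rps18), against 1.29 percent of 466 probes, and 0 were higher, against 0.215 percent. The median was -1.81 within series A, with 19 of 19 members lower, and -0.87 within series B, with 19 of 20 lower, where all probes had medians of 0.10 and -0.21. Leaving out single arrays kept the median between -2.12 and -1.31, but the only day 1 array could not be left out. Series A weighs more in the early mean than in the late mean. With the series letter in the model the median was -1.36. Since the early arrays enter both this comparison and the early one, the counts of the 2 are not separate evidence.

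Rps12 had the largest difference. It read -2.65, -2.18 and -2.76 on days 4, 5 and 6 of series A and -5.39, -2.63 and -4.29 in series B, each below all 3 early values. The difference was -2.76 log2 (SE 0.94; limma unadjusted p = 0.00962, adjusted p = 0.730). Rpl21 read -1.26, -2.15 and -1.71 in series A and -4.77, -4.05 and -1.04 in series B, a difference of -2.52 log2 (SE 0.93). Rpl27 read -1.56, -1.79 and -2.07 in series A and -4.55, -2.70 and -3.17 in series B, a difference of -2.50 log2 (SE 0.93). For both, each late array was below the early mean, but some late values were above the early value of series B.

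Rps18 read -0.93, -1.34 and -1.40 in series A and -3.42, -2.80 and -1.76 in series B. Its highest late value, -0.93, lay just below its lowest early value, -0.89, and the difference was -1.81 log2 (SE 0.79; limma adjusted p = 0.730). Rpl19 read -1.10, -2.21 and -1.43 in series A and -3.41, -3.72 and -0.06 in series B, a difference of -2.06 log2 (SE 0.98). Rps16 read -1.81, -2.23 and -0.83 in series A and -3.35 and -1.23 on days 4 and 6 of series B, a difference of -1.32 log2 (SE 0.72). Of the members tested, Rps16, Rplp0 at -1.04 log2 (SE 0.96) and Rpl32 at -0.21 (SE 0.72) differed least.

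**Figure D3:**
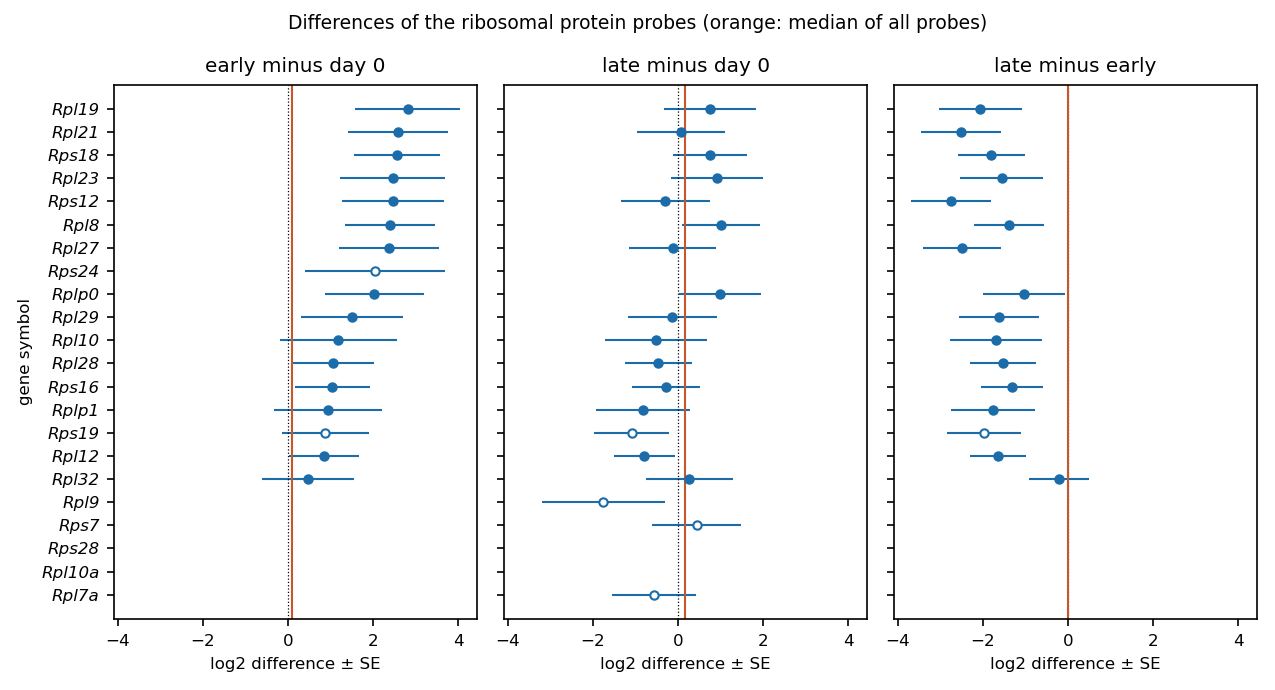
Log2 difference of each ribosomal protein probe (horizontal axis, with bars of 1 SE) in the 3 comparisons, ordered by the early difference (vertical axis, gene symbol). Filled points were tested and open points were fitted without a test. All 17 early points lie above 0, all 16 late minus early points lie below 0, and the late points lie on both sides around a median of -0.13.

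Day 3 differed between the series. In series A 17 of 20 members were above their day 0 value, with a median of 1.09, where all probes had 0.12. In series B 6 of 14 were, with a median of -0.15, where all probes had -0.27. The day 3 values of series A ran from -2.16 for Rpl28 to 0.94 for Rpl32. Those of series B ran from -5.47 for Rpl10 to -0.54 for Rpl32. Rpl10 and Rplp1 gave the clearest contrast, at 0.60 and 0.79 on day 3 of series A and -5.47 and -4.87 on that of series B. Among large subunit proteins, Rpl8 read -0.85 and -3.82 on day 3 of series A and B, Rpl12 -1.47 and -1.45, Rpl19 -0.45 and -3.81, Rpl21 -1.44 and -4.24, and Rpl23 -0.71 and -3.33. Rps12 read -0.26 and -3.28, Rps16 -1.46 and -2.27, Rps18 -1.14 and -3.57, and Rplp0 -0.21 and -3.39. Rpl27 read -0.04 in series A and had no value in series B. Of those with both values, Rpl12 alone was no lower in series B. With 1 array for each series these differences were not tested.

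Rpl32 did not share the low ratios of the other members. Over the 13 arrays it lay between -0.54 and 1.47 and was below 0 on 4 of 11, reading 0.94 on day 3, 1.38, -0.28 and 0.61 on days 4, 5 and 6 of series A, and -0.54, -0.16 and 0.29 on days 3, 4 and 5 of series B. Its 5 SD values lay between -0.46 and 0.36. Rps24, a small subunit protein mutated in Diamond-Blackfan anemia, was the most variable, from 2.48 on day 2 of series A to -8.28 on day 4 of series B. That lowest value rests on a single array, and so small a ratio is coarsely resolved where ratios carry 3 decimals. The next lowest value of Rps24 on these arrays was -3.61, on day 2 of series B. Rps28, also a Diamond-Blackfan gene, had no day 0 or early value and read 0.80 on day 3 of series A and between -3.36 and -1.52 on 4 late arrays. Rpl10a, which forms the mobile stalk on the other side of the large subunit, likewise had no day 0 or early value and read 0.23 on day 3 of series A and between -4.77 and -1.77 on 5 late arrays.

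The members mutated in Diamond-Blackfan anemia were Rpl27, Rps7, Rps19, Rps24 and Rps28. Their day 0 median was -2.32 over the 4 measured, where all members had -2.30 over 20. The early difference was above 0 for 3 of 3 fitted (Rpl27 2.37, Rps24 2.05 and Rps19 0.87). Rps7, which can also bind Mdm2, was not measured on day 1 and read 0.44 and -1.93 on day 2 against -1.55 and -3.07 on day 0. Rpl7a read -1.79 on its only early array, day 2 of series B, against -0.89 and -2.27 on day 0. Rpl28 and Rpl29 had early differences of 1.07 (SE 0.96) and 1.499 (SE 1.20).

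**Figure D4:**
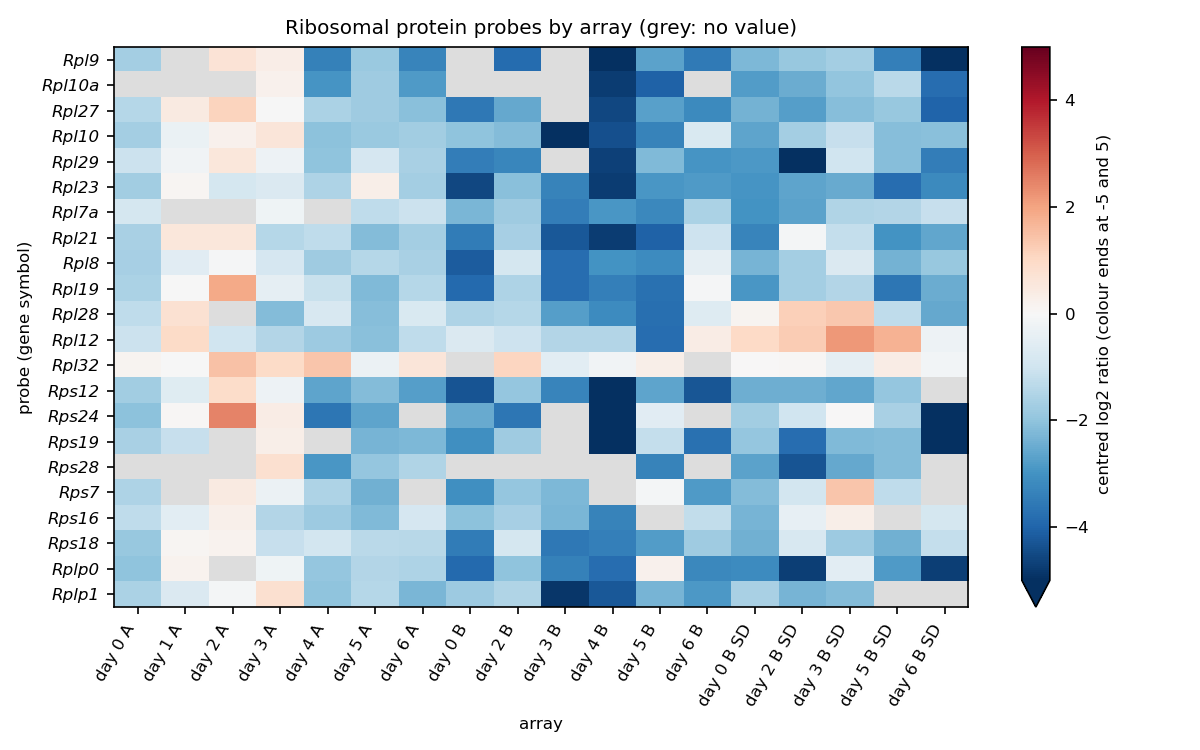
Centred log2 ratio (colour, blue below 0 and red above, ending at -5 and 5) of each ribosomal protein probe (rows) on each array (columns), with missing values in grey. SD arrays have the sign as deposited. Most cells are blue apart from days 1 to 3 of series A. The row of Rpl32 is pale or red throughout, and that of Rpl12 is red on 4 of the 5 SD arrays.

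On the SD arrays the channel labels of days 2, 3, 5 and 6 were exchanged. The sign of their ratios seems to have been reversed in the deposited table. Turning the high values of these arrays gave the log2 of a ratio with 3 decimals in 100 percent of cases (within 0.02 thousandths), whereas on the 13 other arrays the low values did so, unturned, in 100 percent. With the sign as deposited, the member medians were -2.38, -1.80, -1.33, -2.12 and -2.58 on days 0, 2, 3, 5 and 6, and 91 of 104 values were below 0. Of 17 members measured on all 5, 13 were below the array median on each, against 19.7 percent of 1107 probes. With the sign turned back, the medians would be 2.38, 1.80, 1.33, 2.12 and 2.58, opposite in sign to series B. With the channels exchanged, such ratios on days 2, 3, 5 and 6 would be control over induced if the numerator channel was kept. High values would then mean members lower in induced cells, the same direction as in series B. In the deposited sign, the SD arrays correlated with the 13 others with a median of 0.404. As deposited, the member ratios were thus low on the SD arrays too, also on day 0, where the labels name the same RNA in both channels. If the sign was reversed before deposit, the measured member ratios of these arrays were high. The cause was not tested.

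A few members had the opposite sign on SD arrays. Rpl12 was at 0.99, 1.25, 2.15, 1.74 and -0.24 on days 0, 2, 3, 5 and 6, whereas it was at -0.71, -1.05, -1.45, -3.80 and 0.35 on the same days of series B. On each of the 5 days the 2 arrays had opposite signs. Rpl28 was at 0.13, 1.19 and 1.34 on days 0, 2 and 3, against -1.54, -1.42 and -2.74 in series B, and was below 0 on both kinds of array on days 5 and 6. Rps7 was at 1.37 on day 3 against -2.24 in series B. These members were picked out after their values were seen, and the cause was not tested.

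Genes that work with the ribosomal proteins were given by lists. Fau, the fused precursor of a small subunit protein whose symbol lies outside the rule, had a day 0 mean of -3.04 and a late difference of 0.45. The 8 probes of other genes with TOP mRNAs were all below 0 on day 0 (median -2.04), with medians of 1.11 early (6 of 6 higher), -0.11 late and -1.27 late minus early. Of all probes, 2128 of 4040 were below 0 on day 0 and 53.6 percent were higher early. Among the 8, Pabpc1, the poly(A) binding protein, had an early difference of 3.08. Eef1b2, a subunit of the elongation factor that delivers tRNA, had 2.37, while Hnrnpa1 stayed near 0 at 0.27. The lists overlap, since the 8 include Fau and the elongation factors Eef1a1 and Eef1b2, and Npm1 is also on the ribosome assembly list. Translation initiation factors were nearer to all probes, with medians of -0.34 on day 0 over 13 probes and 0.12 early over 9. The elongation factor list had a median of -1.86 on day 0 and 0.52 early over 3 probes. Its Eef2k, a kinase and not itself an elongation factor, went the other way, at 0.91 on day 0 and -1.535 early. The factors Eef1b2 and Eef1a1 were at -2.21 and -1.86 on day 0 and at 2.37 and 0.52 early.

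Lists with no part in cytosolic translation, and that of ribosome assembly, also had medians below 0 on day 0. The respiratory chain and ATP synthase list had a median of -1.30 on day 0 (20 of 20 probes below 0), 0.88 early and 0.30 late. Mitochondrial ribosomal proteins were at -1.12 on day 0 over 4 probes and 0.84 early, and other abundant housekeeping transcripts at -1.10 over 15 probes, 0.91 early over 9 and 0.70 late over 15. Ribosome assembly and RNA polymerase I genes were at -1.04 on day 0 and 0.56 early. Of 11 fitted early, 7 were higher, among them nucleolin (Ncl) at 1.28 and nucleophosmin (Npm1) at 1.61. The other 4 were lower, among them Rrs1 at -1.98 and Polr1a at -1.03. The ribosomal protein medians of -2.30 on day 0 and 2.03 early were farther from 0 than the medians of these other lists with at least 3 probes, a description without a test.

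**Figure D5:**
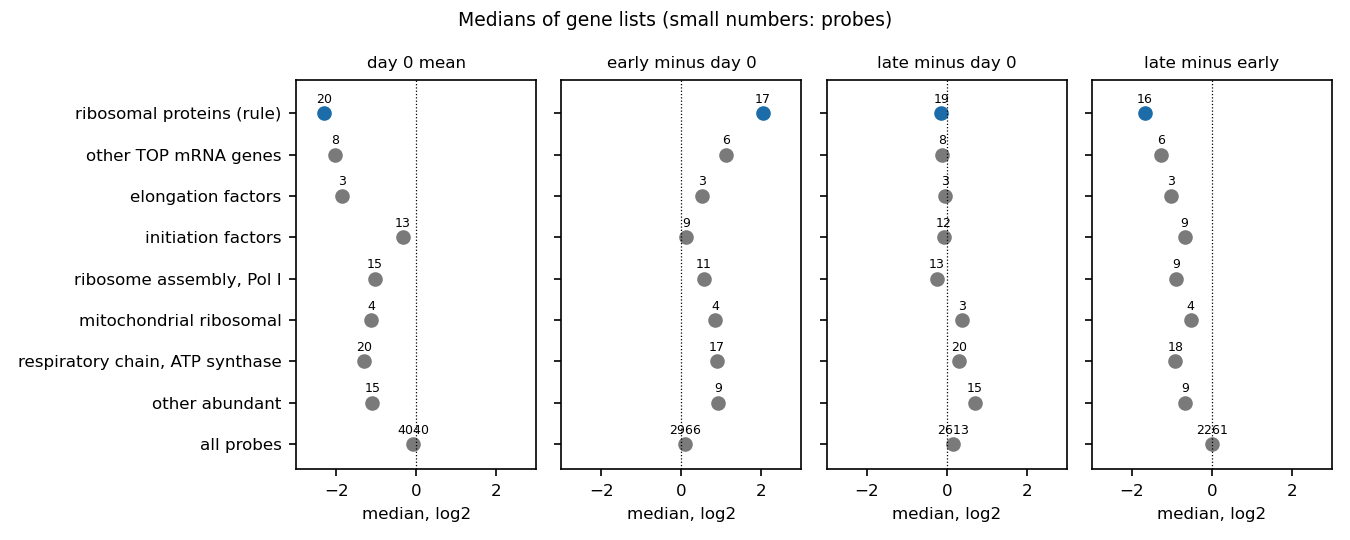
Median log2 ratio on day 0 and median log2 difference in the 3 comparisons (horizontal axes) for ribosomal proteins and other gene lists (vertical axis), with the number of probes above each point. Ribosomal proteins lie at -2.30 on day 0, 2.03 early and -1.68 late minus early, and all probes lie between -0.07 and 0.16.

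Markers of the cells gave the following values. Of 8 erythroid probes 7 were higher late than on day 0, with a median of 1.80, against 8 of 19 ribosomal protein members. Megakaryocyte markers had a late median of 0.40 over 3 probes (Itga2b 2.49, Gp1bb 0.40 and Pf4 0.10). The 2 mast cell probes went opposite ways, Mcpt2 at -3.14 and Kit at 0.66, with a median of -1.24. Macrophage, B cell, T cell and fibroblast markers had no fitted late value, and their early medians lay between -1.09 and -0.36 over 1 or 2 probes each. A ratio against the same line gives no absolute level, so these lists bear on direction only, and their part in the results was not tested.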

How the data were processed

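Two-colour array ratios of 18 MEL samples were read from the authors' deposited value table, whose unit is log2, recognised from its values. Dyes, scanner, background correction and earlier normalization are not given in the sources used here. Signal behind a ratio was not used, and a missing value could not be told from a low one. Probes were named from the platform annotation: 6108 had 1 symbol, 41 several and 719 none. All 24 probes matching the ribosomal protein symbols were found in the RefSeq gene table, with 0 symbols updated. The median of each array was subtracted from its values.

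The 13 arrays without SD were fitted with limma 3.58.1 in R 4.3.3 as 7 day groups without further terms, with moderated tests and Benjamini-Hochberg adjustment over all probes tested at 0.05. A probe was tested with values on at least 11 of the 13 arrays and on at least 1 day 0 array, which left 1221 probes and 15 members; a comparison that a probe's missing days did not allow was dropped for it. Day 1 had a single array, assumed to vary like the others. Differences of other members came from the same model without a test. Over the 78 pairs of these arrays the correlation across probes ran from -0.08 to 0.77 (median 0.426). Over the 65 pairs of an SD array with 1 of the 13 it ran from -0.144 to 0.782 (median 0.404). The fit was tested on simulated data. Full values were given for members on all 13 arrays and for the 3 highest and 3 lowest members tested in each comparison, and other members by range, count or a stated reason. The members, lists and tests were chosen with earlier results of these data known. Alternatives changed the filter, centring, scaling, reference, SD arrays, series term and arrays used.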

Additional observations from a re-analysis of the deposited data

How the results depend on the processing

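The member medians of the early and the late minus early comparison kept their direction under every alternative run that compares groups of days, from 0.56 to 2.83 and from -2.12 to -0.87 log2. The early median was -0.51 with ratios set against 0, and 0.56 with the day 0 profile, scaled to each array, removed. The late median was -2.23 against 0 and -1.76 with the day 0 SD array added with its sign turned, and lay between -0.67 and 0.99 when single arrays were left out. Late probes past an adjusted p of 0.05 in limma numbered 309 against 0, 56 with the day 0 profile removed, and 1 with the replicate block or with the turned SD array. Leaving out single arrays gave 0 to 1, with 1 probe without either day 3 array. With the day 0 profile removed 0 of 15 members were called in any comparison. In the late comparison of that fit, which takes the profile as known, 7 of 15 members were lower at an unadjusted p under 0.05 in limma. The same held for 118 of 1211 probes. For higher values the counts were 0 members and 163 probes.

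With the series letter as a replicate block the medians were 1.47 early, -0.13 late and -1.36 late minus early, and the block called 0 members. Arrays of one letter deviated from their day means with correlations of -0.0098 to 0.42 over 15 pairs of days (median 0.265). The letter was left out of the main fit, although the member median was lower in series B on every shared day. The early mean draws more on series A than the day 0 and late means do.

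Single members turned sign as follows. Against 0, early, Rpl12 was at -0.034, Rplp1 at -0.77 and Rps18 at -0.13, and late, Rpl23 was at -2.23, Rpl8 at -1.90 and Rplp0 at -1.96. Rplp1 early was at -0.13 with the day 0 profile removed and at -0.17 with the turned day 0 SD array. With that array Rpl23, Rpl8 and Rplp0 late were at -1.13, -0.74 and -1.04. Rpl10 late was at 0.12 with quantile normalization and 0.051 with equal spread. Leaving out single arrays gave -0.49 to 2.30 for Rpl23 late, -0.24 to 2.25 for Rpl8 late and -0.47 to 0.044 for Rpl32 late minus early, which was 0.085 without centring. The cause was not tested. The other 220 values of named members under an alternative kept their direction and their side of the threshold, and 3 late ratios (Rpl10, Rpl12 and Rplp1) were past it against 0. The early and the late minus early comparison could not be fitted without the only day 1 array. Averaging probes of a gene and leaving out paralog symbols changed nothing, since every gene had 1 probe and 0 members had a paralog symbol. The member medians of replicate arrays differed by an SD of 1.46 log2, a root mean square over the days that includes the offset between the series. It is not the spread of single ratios. No signal intensity was used, so the precision of a single ratio is unknown.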
